A study of Mus musculus with 3 samples.

Results

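Small leucine-rich proteoglycans are secreted matrix proteins with a core of leucine-rich repeats, and 10 of their genes and close relatives were examined here on arrays of C3H10T1/2 cells, a mouse line of multipotent mesenchymal cells. The genes were chosen by family membership and by their place in the genome, with their values on these arrays already known, so their levels and differences are given as a description with no test. They are Aspn, Omd, Ogn and Ecm2, which lie side by side on chromosome 13, Dcn, Lum and Kera, which lie side by side on chromosome 10, Prelp and Fmod on chromosome 1, and Bgn on the X chromosome. They are 10 of 18193 genes that the arrays pair with a single symbol, and they were read by 22 probe sets. RNA was hybridized from 3 cultures of the line, with 1 array each: cells given a retrovirus for Venus-Mkx, a fusion of the fluorescent protein Venus with the homeobox factor Mohawk (Mkx), cells given a retrovirus for Venus alone, and C3H10T1/2 cells with no overexpression. All 3 cultures share the parent line, for which the methods give 1 growth medium. The retroviral vector was pMIGR, and the methods name puromycin in the medium at the infection step only. For the Alcian blue and Alizarin red staining the methods name 3 independent clones of each condition. The sources used here do not say whether the RNA on each array came from 1 clone or a pool. The study asked how Mkx changes the lineage of mesenchymal cells, because Mkx is a factor of tendon, ligament and the outer annulus fibrosus.

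In tendon, ligament and annulus fibrosus these proteins sit on collagen fibrils and govern how fibrils grow in width and fuse. Many carry glycosaminoglycan chains, chondroitin or dermatan sulfate on decorin and biglycan and keratan sulfate on lumican, keratocan, fibromodulin and osteomodulin, and several bind growth factors such as transforming growth factor β (TGFβ). The family arose by duplication, so its genes stand in short clusters, which makes it possible to ask whether neighbours of 1 cluster were read alike.

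Values are log2 probe set values as deposited, and a gene is represented by whichever of its probe sets had the greatest mean across the arrays. The median of all values, 4.34, served as a floor under which a level was treated as background, and 11169 genes with at least 1 array at or over it are called measured. A gene was called higher or lower when the array labelled Venus-Mkx differed at least 2-fold, that is by 1 on the log2 scale, from both control arrays in 1 direction. With 1 array per condition no difference has a replicate check or a p-value, so none can be set against a replicate spread, and a change in the number of expressing cells and a change in RNA per cell cannot be told apart. Mkx itself read 2.71 on the array labelled Venus-Mkx, 7.43 on Venus and 6.88 on C3H10T1/2, which goes against the label. The retroviral insert was the coding sequence of Venus-Mkx, and the position of the Mkx probe set relative to it is not known here. Whether this probe set can read the retroviral transcript was not tested. The array is therefore called the array labelled Venus-Mkx, and every direction below hangs on that label. All 10 mesenchymal fibroblast markers examined, among them Vim and Thy1, were above the floor on all 3 arrays. The arrays had medians of 4.34 to 4.39. Over measured genes the log2 differences had an SD of 0.94 for Venus-Mkx minus Venus, against 0.34 for Venus minus C3H10T1/2.

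Of the 10 genes, 8 were measured, while Lum and Kera were below the floor on all 3 arrays. On the array labelled Venus-Mkx, 4 of the 8 were lower than both controls (Aspn, Omd, Ogn and Prelp), 1 was higher (Dcn) and 3 were neither (Ecm2, Fmod and Bgn). Over all measured genes 5.34% were lower and 6.82% higher by the same rule; these shares give the scale only, since the same contrast was known when the genes were chosen. The median log2 difference of the 8 genes was −2.12 from Venus and −1.71 from C3H10T1/2, against medians of 0 over all measured genes in both comparisons.

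**Figure D1:**
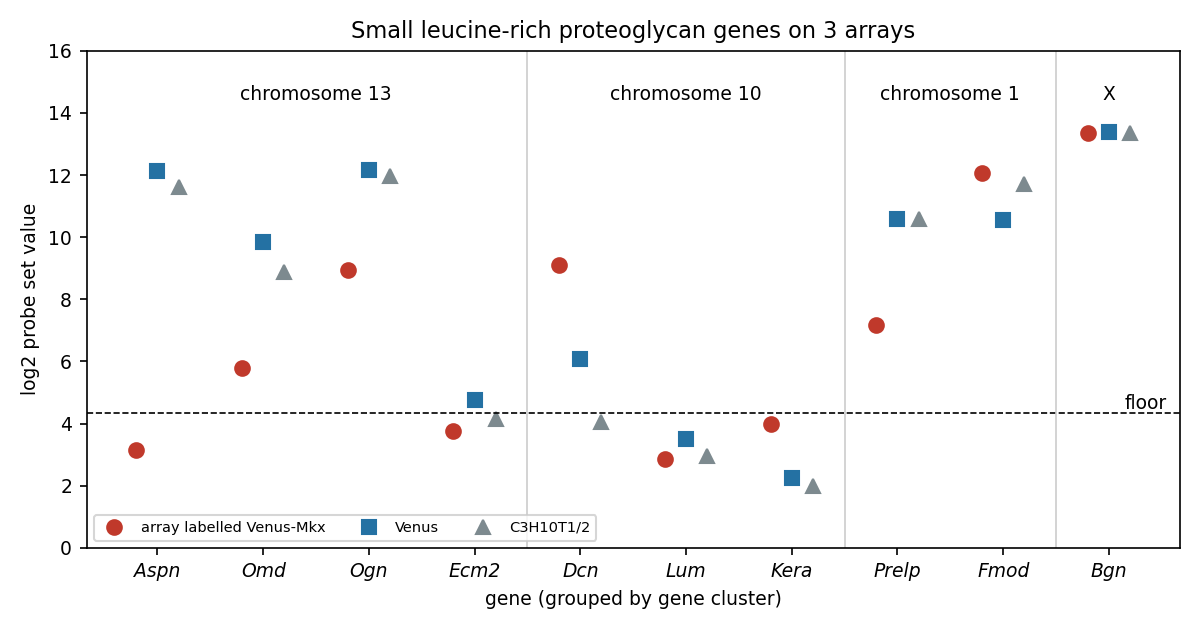
Log2 probe set value of each of the 10 genes on the array labelled Venus-Mkx (circles), on Venus (squares) and on C3H10T1/2 (triangles), 1 array each, with the genes grouped by cluster and the floor of 4.34 as a dashed line. Aspn, Omd, Ogn and Prelp have their lowest value on the array labelled Venus-Mkx and Dcn its highest, whereas the 3 Bgn values coincide.

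The chromosome 13 genes were lower on the array labelled Venus-Mkx in 3 of 4 cases, and Aspn showed the lowest difference from Venus of all 11169 measured genes. Aspn encodes asporin, a class I member of the family with a run of aspartates, which binds collagen and restrains TGFβ. Its value was 3.14 on the array labelled Venus-Mkx, 12.14 on Venus and 11.62 on C3H10T1/2. Both controls were thus high, and the low array fell under the floor. The log2 differences were −9.00 from Venus and −8.47 from C3H10T1/2. Because of the floor, this probe set shows at least 223-fold lower than in Venus and at least 155-fold lower than in C3H10T1/2. The other Aspn probe set gave differences of −8.55 and −7.78. With the floor it shows smaller bounds, at least 145-fold lower than in Venus and at least 84.4-fold lower than in C3H10T1/2.

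Omd encodes osteomodulin, a keratan sulfate proteoglycan of bone and teeth. It read 5.79 on the array labelled Venus-Mkx, 9.84 on Venus and 8.88 on C3H10T1/2. All 3 values lay above the floor, so the differences of −4.05 and −3.09, or 16.5-fold and 8.51-fold, can be read directly. Ogn encodes osteoglycin, also called mimecan, a class III member that affects the diameter of collagen fibrils. Its value was 8.94 on the array labelled Venus-Mkx, 12.17 on Venus and 11.97 on C3H10T1/2. All 3 values lay well above the floor, with differences of −3.23 and −3.03, or 9.37-fold and 8.16-fold, and its other probe set read differences of −4.01 and −3.98.

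Ecm2 encodes an adhesive matrix protein with leucine-rich repeats and a von Willebrand factor type C domain, which is related to the family but is not always counted in it. It read 3.76 on the array labelled Venus-Mkx, 4.77 on Venus and 4.15 on C3H10T1/2. The Venus value alone reached the floor, and the differences were −1.01 and −0.39. Because of the floor Ecm2 is shown to be at least 1.35-fold lower than in Venus, and against C3H10T1/2 no fold can be given. Its other probe set was below the floor and held the same value on all 3 arrays. The low level of Ecm2 therefore limits what can be said of the cluster as a whole to Aspn, Omd and Ogn.

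The start regions of these 4 genes are shown because the genes are neighbours on 1 strand and 3 of them were lower together. They cover 250 bases before to 50 bases after each annotated start and come from RefSeq, build GRCm38.p6, at chr13:49544193-49544492 (+ strand) for Aspn, chr13:49582212-49582511 (+ strand) for Omd, chr13:49607765-49608064 (+ strand) for Ogn and chr13:49504560-49504859 (+ strand) for Ecm2. Each is written 5′ to 3′ along the gene, with matches to the E-box CANNTG, a motif bound by basic helix-loop-helix factors, in capitals.
Aspn: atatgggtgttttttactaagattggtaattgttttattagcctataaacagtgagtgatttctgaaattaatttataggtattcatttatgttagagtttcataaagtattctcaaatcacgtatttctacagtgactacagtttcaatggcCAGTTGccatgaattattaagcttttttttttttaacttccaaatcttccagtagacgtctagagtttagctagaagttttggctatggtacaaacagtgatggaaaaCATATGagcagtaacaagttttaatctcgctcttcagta
Omd: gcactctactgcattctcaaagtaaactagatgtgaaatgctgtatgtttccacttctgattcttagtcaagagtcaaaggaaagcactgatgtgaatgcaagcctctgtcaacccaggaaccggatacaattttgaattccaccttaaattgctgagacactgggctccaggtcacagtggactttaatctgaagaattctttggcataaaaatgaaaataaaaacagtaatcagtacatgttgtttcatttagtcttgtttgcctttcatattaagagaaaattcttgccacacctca
Ogn: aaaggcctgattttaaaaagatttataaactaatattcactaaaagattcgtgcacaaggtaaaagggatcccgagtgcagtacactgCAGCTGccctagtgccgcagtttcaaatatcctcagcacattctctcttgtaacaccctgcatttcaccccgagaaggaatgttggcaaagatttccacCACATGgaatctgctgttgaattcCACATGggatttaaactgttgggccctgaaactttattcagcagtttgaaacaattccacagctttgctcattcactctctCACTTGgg
Ecm2: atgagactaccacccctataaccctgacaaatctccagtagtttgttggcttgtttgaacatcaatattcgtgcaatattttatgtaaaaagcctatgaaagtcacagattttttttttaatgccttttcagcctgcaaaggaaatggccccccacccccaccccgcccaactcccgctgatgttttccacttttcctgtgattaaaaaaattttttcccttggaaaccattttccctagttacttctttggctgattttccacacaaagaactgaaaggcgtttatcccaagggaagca
The regions were searched on both strands for 5 motifs, namely TATAAA (the TATA box), CCAAT (the CCAAT box), TGANTCA (the AP-1 motif), CANNTG (the E-box) and ACANNTGT, a motif of Iroquois-class homeobox factors that always contains an E-box. Aspn held 2 E-boxes and Ogn 4, whereas Omd and Ecm2 held none. TATAAA was found in Aspn and Ogn, each with 2 matches that lay 178 to 229 bases before the start. The 2 matches in Ogn overlap in a single stretch, with 1 on each strand. CCAAT was found in Aspn alone of the 4. Neither TGANTCA nor ACANNTGT was found in any of the 8 start regions that the table held for the 10 genes, and Dcn and Lum had no entry. Of all 32851 regions of this length, 72.3% hold CANNTG, 37.4% hold CCAAT, 13.6% hold TATAAA, 7.81% hold TGANTCA and 7.38% hold ACANNTGT. No motif of the 5 was shared by the 4 windows, which is a statement about these letters and this length only.

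The chromosome 10 cluster could be read through Dcn alone. Dcn encodes decorin, a class I proteoglycan with 1 glycosaminoglycan chain that binds type I collagen and TGFβ. Its value was 9.12 on the array labelled Venus-Mkx, 6.07 on Venus and 4.06 on C3H10T1/2, so the 3 arrays formed steps and the C3H10T1/2 value lay below the floor. The differences were 3.04 from Venus, or 8.25-fold, and 5.06 from C3H10T1/2, of which at least 27.3-fold is shown. Its other probe set was below the floor throughout, with 3.25 on the array labelled Venus-Mkx, 2.91 on Venus and 2.88 on C3H10T1/2.

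Lum encodes lumican, which keeps the collagen of the cornea in order and is also made in tendon, and Kera encodes keratocan, best known from the corneal stroma. Lum read 2.87 on the array labelled Venus-Mkx, 3.52 on Venus and 2.95 on C3H10T1/2. Kera read 3.98 on the array labelled Venus-Mkx, 2.26 on Venus and 2.00 on C3H10T1/2. All 6 values were below the floor, so no fold is given for either gene, although the Kera values differed by 1.72 and 1.98 as read. Epyc, which encodes epiphycan and follows Kera in the annotation, held 2.58 on every array.

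**Figure D2:**
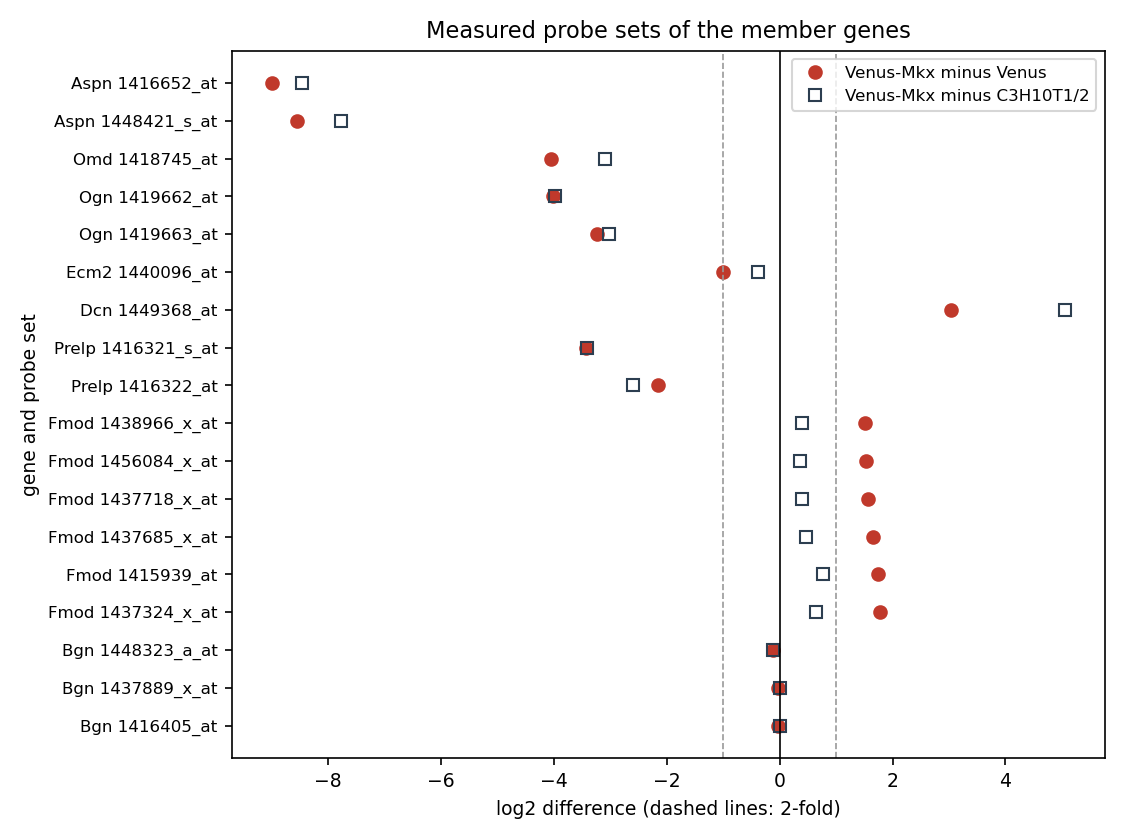
Difference in log2 value of Venus-Mkx from Venus (filled circles) and from C3H10T1/2 (open squares) for the 18 measured probe sets of the 8 measured genes, 1 array per condition, with dashed lines at 2-fold. All probe sets of Aspn, Omd, Ogn and Prelp lie left of −2, Dcn lies right of 3, and the 6 probe sets of Fmod lie past 2-fold against Venus only.

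Set against each other, the measured genes of the 2 clusters were read in opposite directions. The median difference from Venus was −3.64 over the 4 chromosome 13 genes and 3.04 over the chromosome 10 cluster, where it is the value of Dcn, a gap of 6.68. Against C3H10T1/2 the medians as read were −3.06 and 5.06, and of the second at least 27.3-fold is shown, since C3H10T1/2 was below the floor for Dcn. The contrast thus compares 3 or 4 readable genes with 1, and when all members were used with no floor the chromosome 10 median was 1.72, the value of Kera.

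The pair on chromosome 1 did not move together. Prelp encodes a proline- and arginine-rich family member that binds heparan sulfate and links basement membranes to collagen. It read 7.17 on the array labelled Venus-Mkx, 10.60 on Venus and 10.59 on C3H10T1/2. The controls were nearly equal, and the differences were −3.43 and −3.42, or 10.7-fold in both cases. This probe set is marked _s_at. A second probe set, which carries no such mark, gave smaller differences of −2.16 and −2.59, or 4.48-fold and 6.03-fold. These were still past 2-fold, and on this probe set Venus minus C3H10T1/2 was −0.43.

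Fmod encodes fibromodulin, a keratan sulfate proteoglycan abundant in tendon and cartilage that binds type I collagen and guides its crosslinking. It read 12.07 on the array labelled Venus-Mkx, 10.54 on Venus and 11.71 on C3H10T1/2. Here Venus was the low array, and the array labelled Venus-Mkx lay close to C3H10T1/2. The difference was 1.53 from Venus, or 2.89-fold, and 0.36 from C3H10T1/2, so Fmod was not called. Its 6 probe sets ran from 1.51 to 1.77 against Venus and from 0.36 to 0.76 against C3H10T1/2; 5 of them are marked _x_at, a mark of probes that can match other transcripts, and the remaining one gave 1.75 and 0.76.

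The start regions of Prelp and Fmod are shown because these genes are adjacent in the family's order, lie on opposite strands and were read apart. They are from the same RefSeq table, at chr1:133921352-133921651 (- strand) for Prelp and chr1:134037004-134037303 (+ strand) for Fmod, with E-box matches again in capitals.
Prelp: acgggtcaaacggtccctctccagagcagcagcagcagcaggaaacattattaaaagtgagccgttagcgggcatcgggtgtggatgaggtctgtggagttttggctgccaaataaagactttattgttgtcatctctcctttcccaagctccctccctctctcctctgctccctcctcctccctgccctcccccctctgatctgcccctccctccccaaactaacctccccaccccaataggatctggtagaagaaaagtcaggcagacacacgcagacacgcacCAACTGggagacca
Fmod: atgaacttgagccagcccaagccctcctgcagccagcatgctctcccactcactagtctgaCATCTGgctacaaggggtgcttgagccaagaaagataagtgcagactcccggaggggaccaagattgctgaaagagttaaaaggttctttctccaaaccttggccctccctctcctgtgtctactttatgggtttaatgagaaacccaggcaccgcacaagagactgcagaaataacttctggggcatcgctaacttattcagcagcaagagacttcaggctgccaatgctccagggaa
Each held 1 E-box, in Prelp starting 36 bases after the annotated start and in Fmod 189 bases before it, and each held 1 CCAAT match. Neither region held TATAAA.

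Bgn encodes biglycan, the class I relative of decorin, found in the matrix of bone and tendon. It read 13.36 on the array labelled Venus-Mkx, 13.39 on Venus and 13.36 on C3H10T1/2, with differences of −0.026 and −0.00064. The remaining probe sets of Bgn gave −0.030 and −0.13 against Venus. All 3 values lay within 1 log2 unit of the highest value on their array, so Bgn was read near the top of the scale.

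Where a gene had several measured probe sets, these were called alike. Of the 22 probe sets, 18 were measured. By the rule used for genes, 7 of these were lower, 1 was higher and 10 were neither. Probe sets of 1 gene are not separate members. Over all measured genes 5.34% were lower and 6.82% higher, and no such share was computed over probe sets. Every measured probe set of Aspn, Ogn and Prelp was lower, and none of the 6 for Fmod and 3 for Bgn was called. Dcn, Omd and Ecm2 had 1 measured probe set each. The other Dcn probe set was below the floor on all 3 arrays, so the higher call rests on 1 probe set.

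**Figure D3:**
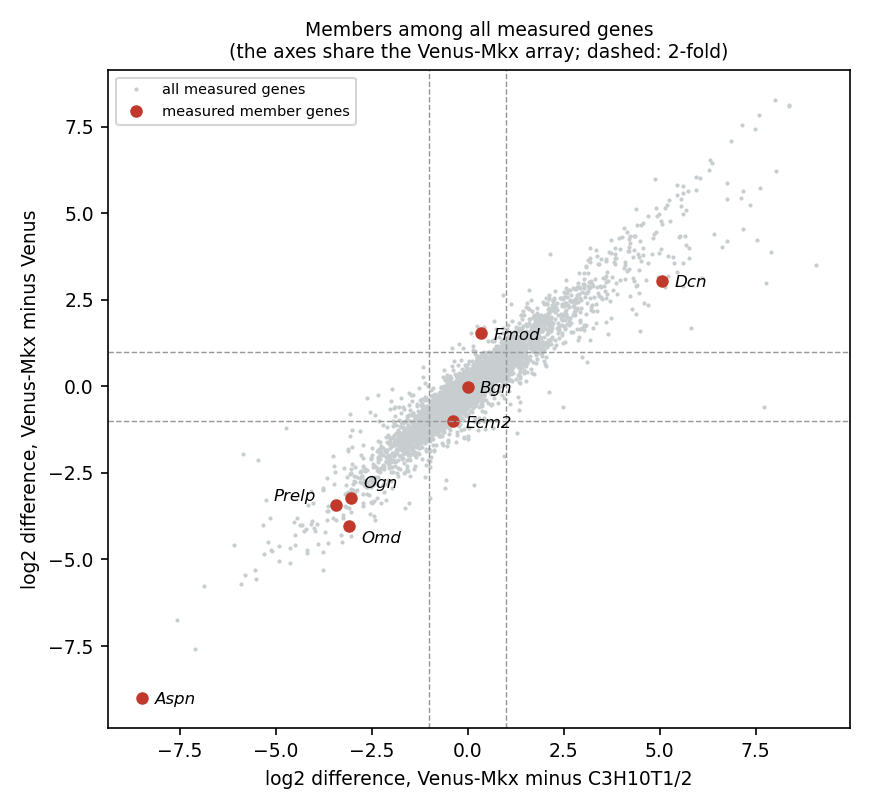
Log2 difference of the array labelled Venus-Mkx from Venus (vertical) against that from C3H10T1/2 (horizontal) for 11169 measured genes (grey) and the 8 measured genes described here (red), 1 array per condition; both axes share the Venus-Mkx array, so the diagonal spread is built in. Aspn lies at the lower left end, Omd, Ogn and Prelp lie close together beyond −3 on both axes, and Fmod (above) and Ecm2 (just below) are past a dashed 2-fold line on the vertical axis alone.

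Between the controls, Dcn and Fmod differed and the chromosome 13 genes differed less. Of the 8 measured genes, 1 was at least 2-fold higher in Venus than in C3H10T1/2 (Dcn) and 1 at least 2-fold lower (Fmod), where 1.49% of all measured genes were higher and 0.555% lower. The Dcn difference was 2.01, of which at least 3.32-fold is shown because C3H10T1/2 was below the floor. The Fmod difference was −1.17, and over its 6 probe sets it ran from −1.20 to −0.99. Omd was 0.96 higher in Venus, just under 2-fold, Aspn 0.53 and Ogn 0.20. For Ecm2 at least 1.35-fold higher is shown, because C3H10T1/2 was below the floor. Prelp differed by 0.0081 and Bgn by 0.025. The controls are separate cultures and differ also in the vector and in the infection step with puromycin, and with 1 array each these cannot be told apart.

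Of the genes next to the clusters, Chil1 alone differed from both controls by over 3 log2 units, as Aspn, Omd, Ogn, Prelp and Dcn did, while some differed by more than Ecm2, Fmod or Bgn. In the annotation's order, 3 named protein-coding genes were taken on each side, and 24 neighbours were on the array. Of 17 measured neighbours, 2 were higher and 2 lower, with a median difference from Venus of −0.21. The shares over all measured genes were 6.82% higher and 5.34% lower. Around the chromosome 13 cluster, Bicd2, Cenpp, Nol8 and Iars were neither, with differences from Venus of −0.64, −0.49, −0.43 and −0.42. Ippk, an inositol phosphate kinase gene, was lower, at −1.18 and −1.28 from Venus and C3H10T1/2, and Fbxw17, an F-box protein gene, was higher, at 1.20 and 1.41. The steep differences of Aspn, Omd and Ogn thus stood between flanks that were all within 1.5 log2 units of both controls.

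Around the chromosome 10 cluster, none of 5 measured neighbours was called, and Btg1, the gene before Dcn, differed from Venus by −0.72 and Atp2b1 by 0.54. Beside Prelp and Fmod, Chil1, which encodes a chitinase-like secreted protein, read 9.84 on the array labelled Venus-Mkx, 3.60 on Venus and 3.55 on C3H10T1/2, so it was at least 45.3-fold higher than both controls, which lay below the floor. Btg2, which stands between it and Fmod, differed by −0.96 from Venus and −0.11 from C3H10T1/2. Beside Bgn, Haus7, a gene of the augmin complex of the spindle, was lower, with differences of −1.69 and −1.54. Genes for plasma membrane calcium pumps stood beside 3 of the 4 loci, and of these Atp2b1 was measured while Atp2b3 and Atp2b4 were below the floor.

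**Figure D4:**
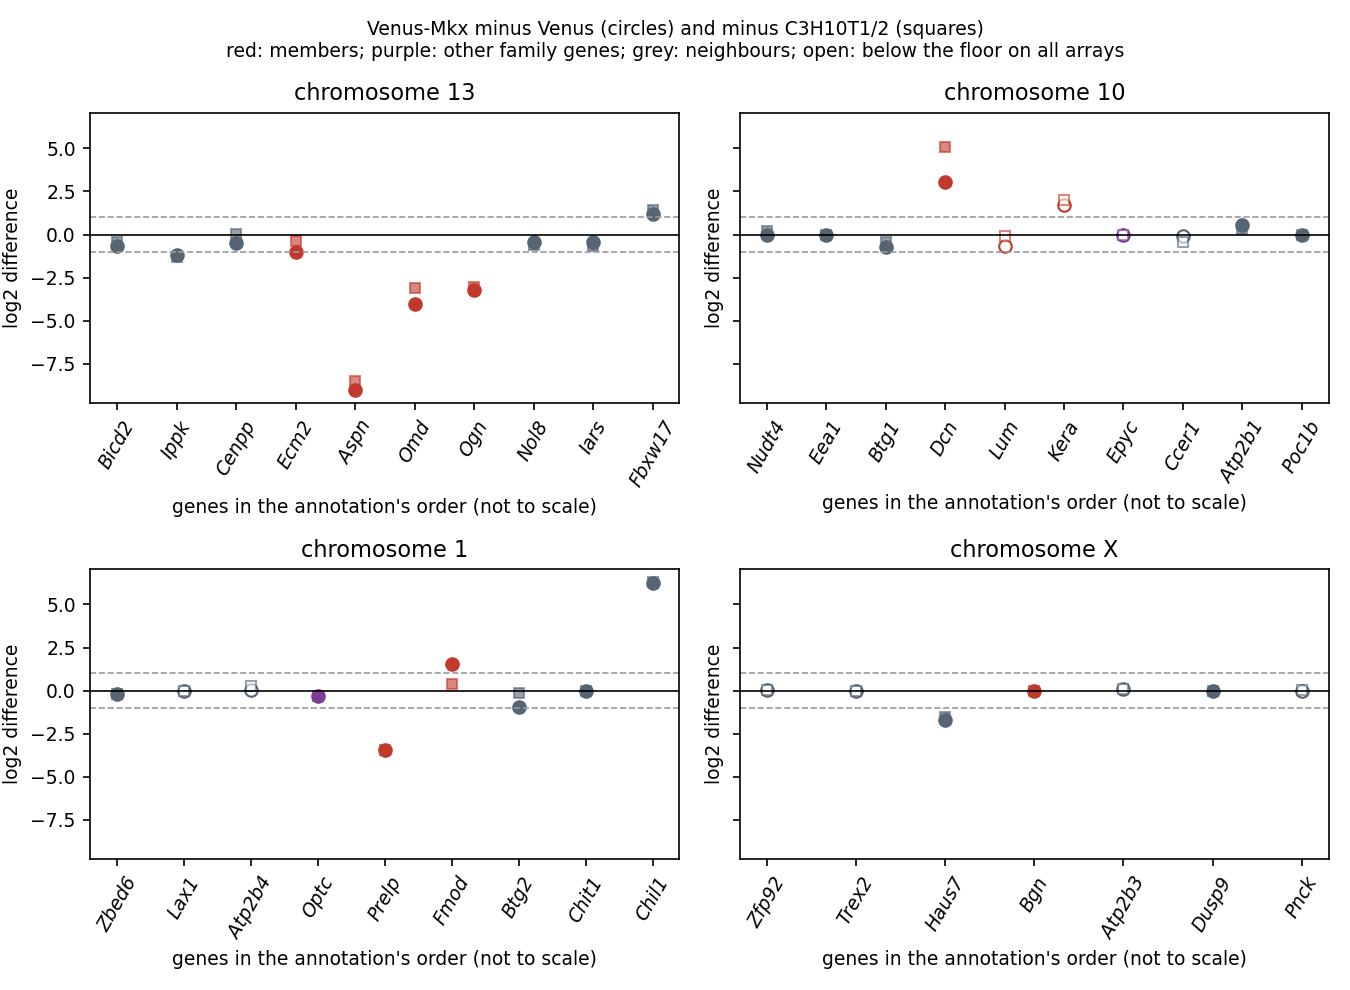
Log2 difference of the array labelled Venus-Mkx from Venus (circles) and from C3H10T1/2 (squares) for the genes of each locus and their neighbours, in the annotation's order and not to scale, 1 array per condition; members are red, other family genes purple, neighbours grey, and open symbols are below the floor on all 3 arrays. Aspn, Omd and Ogn lie below −3 between flanking genes within 1.5 log2 units of 0, Dcn lies above 3, and Chil1 is the farthest neighbour, above 6.

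The genes most like Aspn and those most like Dcn over the 3 arrays were sought next. Likeness was taken as the Euclidean distance between the 3 values of 2 genes, in log2 units, after each gene's mean was subtracted, so it rests on 3 values, depends on the size of a gene's differences and takes values below the floor as read. The 5 measured genes nearest to Aspn were Postn, Sorbs2, Pappa2, Scara5 and Ptx3, at distances of 1.14, 1.59, 2.28, 2.45 and 2.62. Postn, which encodes the matrix protein periostin, was the nearest, with 4.81 on the array labelled Venus-Mkx, 12.39 on Venus and 11.92 on C3H10T1/2. Like Aspn it was slightly higher in Venus than in C3H10T1/2, by 0.47, while the other 4 were lower in Venus. On the array labelled Venus-Mkx, Aspn itself was below the floor, so none of the 5 distances is exact. Sorbs2 and Pappa2 were below the floor there as well. Aspn also had the lowest difference from Venus of all measured genes, and Postn, the nearest, differed from Venus by −7.58.

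The genes nearest to Dcn were Tgfbi, Parp14, Rtp4, Oas1a and Gbp2, at distances of 0.13, 0.16, 0.18, 0.28 and 0.36, which use the C3H10T1/2 value of Dcn below the floor. Because of the difference in size, the distances for Dcn and Aspn are not comparable. Tgfbi encodes a secreted TGFβ-induced matrix protein and read 11.50 on the array labelled Venus-Mkx, 8.30 on Venus and 6.27 on C3H10T1/2. The other 4 are interferon-induced genes, with differences from Venus of 3.17, 2.88, 3.29 and 3.07 in the order above. Of 21 interferon response genes on the array, listed with earlier results known, all were measured and called higher, against 6.82% of all measured genes. Their mean log2 value was 10.02 on the array labelled Venus-Mkx, 6.62 on Venus and 4.78 on C3H10T1/2 and thus stepped down in the order of the Dcn values. The part of the interferon response in the Dcn values was not tested.

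**Figure D5:**
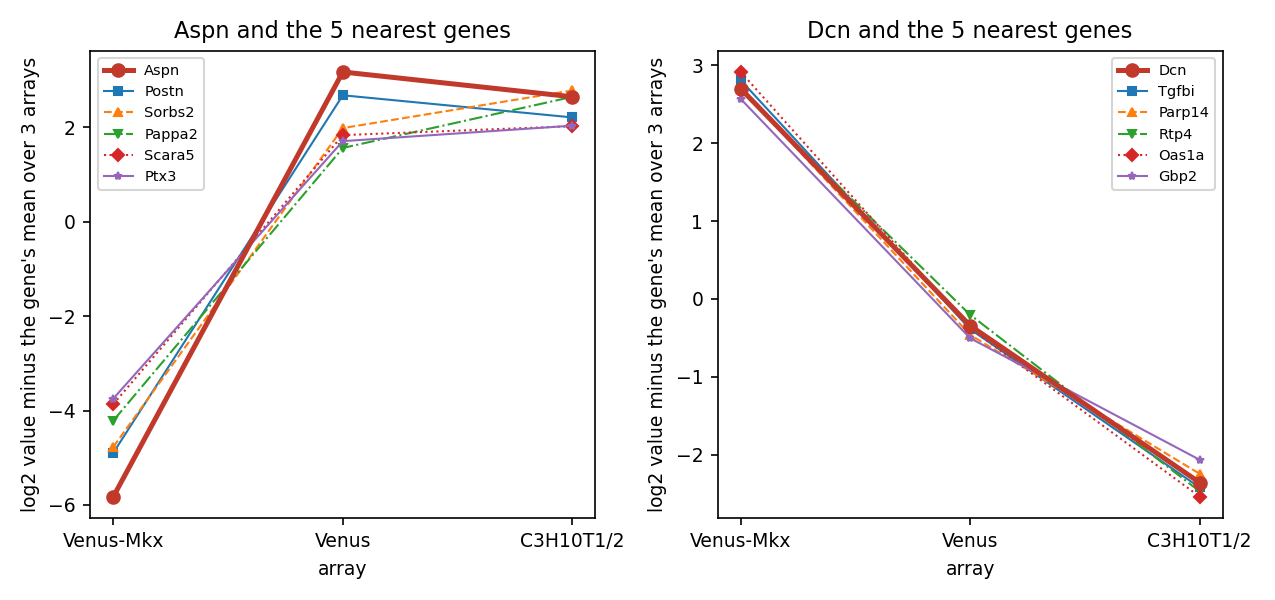
Log2 value minus the gene's own mean over the 3 arrays for Aspn (left) and Dcn (right) in bold and the 5 measured genes nearest to each, with 1 array at each point. Aspn and its neighbours in pattern have 1 low point at Venus-Mkx, and Dcn and its neighbours in pattern have their highest point at Venus-Mkx, a middle one at Venus and their lowest at C3H10T1/2.

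Among other genes of the family, 6 of 8 listed were on the array and 3 were measured. Podn, which encodes podocan, was the 1 called gene, with 6.89 on the array labelled Venus-Mkx, 5.56 on Venus and 5.38 on C3H10T1/2 and differences of 1.33 and 1.51. Optc (opticin), next to Prelp, differed by −0.34 from both controls near the floor, and Chadl by −0.061. Chad, Epyc and Nyx were below the floor on all arrays. By the same rule 6.82% of all measured genes were higher and 5.34% lower.

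The collagens that these proteoglycans coat also differed in both directions. Of 14 fibril-forming and fibril-associated collagen genes, all measured, 3 were higher, 3 lower and 8 neither, with a median difference from Venus of 0.015. The shares over all measured genes were 6.82% higher and 5.34% lower. Col1a1, a chain of type I collagen, was higher by 1.34 from Venus, and Col3a1, of type III collagen, differed by −3.86. Of the minor fibril collagen XI, 2 chains were called, Col11a2, at least 5.82-fold higher over controls below the floor, and Col11a1, at −1.99 from Venus. Col14a1, a fibril-associated collagen of tendon, read 4.69 on the array labelled Venus-Mkx, 2.72 on Venus and 2.83 on C3H10T1/2. Its call rests on values below the floor, since no more than at least 1.27-fold is shown. Enzymes that build the glycosaminoglycan chains mostly were not called, as most of all measured genes were not (6.82% higher, 5.34% lower). Of 19 measured, 1 was higher, 2 lower and 16 neither. The higher gene was Chst1, a keratan sulfate sulfotransferase, at 10.77 on the array labelled Venus-Mkx, 9.35 on Venus and 7.88 on C3H10T1/2, and the lower ones were Chst15 and Chst11, which sulfate chondroitin, at −1.65 and −1.17 from Venus.

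Of 21 measured ligands, receptors and processing enzymes of the family, 5 were higher, 4 lower and 12 neither. Among all measured genes 6.82% were higher and 5.34% lower. The processing enzymes were split: Mmp13, a collagenase that also cuts fibromodulin, was at least 15.3-fold higher over controls below the floor, and Adamts4, an aggrecanase, differed by 2.74 from Venus. Adamts5, also an aggrecanase, differed by −2.42 and Adamts1 by −3.12. Bmp1 and Tll1 encode related proteinases that trim the propeptide of biglycan. Bmp1 was higher, by 1.02 from Venus, and Tll1 was lower, at least 4.01-fold from Venus with a Venus-Mkx value under the floor. Tlr4, a receptor for soluble biglycan, read 4.12 on the array labelled Venus-Mkx, 7.67 on Venus and 7.59 on C3H10T1/2. Tgfb1 and Tgfbr2, ligand and receptor of the pathway that decorin, biglycan, fibromodulin and asporin can bind to or restrain, were higher, by 1.14 and 1.02 from Venus, whereas Tgfb2, Tgfb3 and Tgfbr1 of the same list were neither, at 0.70, 0.36 and 0.50.

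Markers of other cell types were mostly near background. Of 10 macrophage markers, 3 were measured; Lyz2 and Csf1r were higher, by 2.16 and 1.23 from Venus, Cd14 was neither, and Ptprc, Adgre1, Itgam, Cd68, Tyrobp, Fcer1g and Aif1 were below the floor on all 3 arrays. The mean log2 value of the 10 was 4.05 on the array labelled Venus-Mkx, 3.73 on Venus and 3.52 on C3H10T1/2. Of 8 endothelial markers, Tek alone was measured and was higher, from a Venus value under the floor. Of 8 epithelial markers 2 were measured, Epcam and Krt5, and neither was called. Epcam read 7.60 on the array labelled Venus-Mkx, 7.03 on Venus and 6.74 on C3H10T1/2, through a probe set marked _x_at. None of 7 housekeeping genes was called, and their median difference from Venus was −0.15. Among all measured genes 6.82% were higher and 5.34% lower.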

How the data were processed

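Each condition gave 1 RNA sample, which was biotin-labelled and read on 1 Affymetrix mouse expression array. The authors deposited log2 probe set values; their methods name MAS 5.0, whereas RMA, with no version, is the tool in the submitters' processing notes. Of 45101 probe sets, 24.6% repeat exactly the same value across the arrays. The values were taken as already normalized. Scanner files and detection calls were not used here, and precision is limited by there being 1 array per condition.

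Probe sets were named through the platform annotation, of which 34945 had 1 symbol, 932 several and 9160 none, and 64 control probe sets were left out. A gene was read through its probe set of greatest mean, the floor was the median of all values, and calls were counts past 2-fold against both controls. No p-value was computed. The counting rule was tested on simulated arrays with known changes. Those changes were larger than the fold used for calls and the noise was alike for all genes. The simulation thus checks the counting only and gives no error rate for these arrays. Gene order and start regions came from RefSeq tables of the assembly GRCm38.p6, which served for names, neighbours and printed sequence and not for the position of probe sets. Start regions were found for 8 of 10 genes.

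The genes described, the lists and the tests were chosen with earlier results of these data known. Named genes were the 10 genes, Mkx, the other family genes, up to 4 genes a list by the difference from the nearer control, 3 neighbours on each side of a locus and the 5 genes nearest in pattern to Aspn and to Dcn; the TGFβ ligands and receptors, Bmp1, Tll1, Adamts5 and the unmeasured macrophage markers were named after their values were seen. Alternatives covered the floor, the probe sets used, the scale, the control and the fold. Setting values below the floor to the floor was added after the data were seen. Python 3.11.15, NumPy 2.4.6, pandas 2.3.3 and matplotlib 3.10.9 were used.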

Additional observations from a re-analysis of the deposited data

How the results depend on the processing

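Over 12 alternatives for 14 results no difference turned its direction. Of 124 values, 96 moved by less than 0.34 on the log2 scale, the SD of Venus minus C3H10T1/2, or, for counts, by less than 1.5 times. Part of these 96 could not move, so the tally overstates stability. Raising or dropping the floor does not enter a gene's own difference, and Omd has 1 probe set, so the probe sets used cannot change its value. The count of 4 lower genes was 4 or 5 throughout, and 8 probe sets differed at 2-fold and 3-fold and 10 at 1.5-fold. Higher genes were 2 in place of 1 against Venus alone, which adds Fmod, and with no floor, which adds Kera. Centring and quantile normalization moved no value by as much as 0.34.

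Against C3H10T1/2 alone the differences were −8.47 for Aspn, 5.06 for Dcn, −0.39 for Ecm2, 0.36 for Fmod and −3.09 for Omd, with medians of −3.06 and 5.06 for the chromosome 13 and 10 clusters and a gap of 8.12. Against the mean of the controls they were 4.05 for Dcn, 0.95 for Fmod and −3.57 for Omd, with 4.05 for the chromosome 10 median and a gap of 7.40. Over the mean of all probe sets they were 1.69 for Dcn, which takes in a probe set below the floor, −3.62 for Ogn and −2.79 for Prelp, with medians of −4.05 and 1.69 and a gap of 5.73. Ecm2 has no value there. Without probe sets marked _x_at, _s_at or _a_at Prelp was −2.16. With the floor at the 75th percentile Ecm2 drops out, and the chromosome 13 median was −4.05 and the gap 7.09. With no floor the chromosome 10 median was 1.72 and the gap 5.36. With low values set to the floor Aspn was −7.80 and Ecm2 −0.43. Where the construction does not show it, the cause of these moves was not tested. Signal over background limits Ecm2, Lum, Kera, the Venus-Mkx level of Aspn and the C3H10T1/2 level of Dcn, and 1 array per condition left no replicate to leave out. No paired analysis was possible because each condition had 1 array.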
